A study of Homo sapiens with 96 samples.

Results

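AP1G2 and 9 further genes for subunits of clathrin adaptor complexes were followed through the alternative splicing events of A549 cells, a human lung adenocarcinoma line, treated with inhibitors of protein arginine methyltransferases (PRMTs). The 10 genes are AP1G1, AP1G2, AP1B1, AP1M1, AP2A1, AP2A2, AP2B1, AP2M1, AP2S1, and AP3D1. All of their events were taken from the 8 deposited rMATS tables, which gave 389 of 239131 events, and 10 of 14359 genes. Of the 389 events, 17 were retained introns (RI), 246 were skipped exons (SE), 94 were pairs of mutually exclusive exons (MXE), 21 were alternative 3′ splice sites (A3SS), and 11 were alternative 5′ splice sites (A5SS). AP1G2 had been chosen because several of its introns respond to both inhibitors in opposite directions. Its values and calls under the inhibitors are therefore a description and are not read as test results. The other 9 genes were tested.

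Cells received 0.01% DMSO for 4 or 7 days, 1 µM GSK591 for 2, 4, or 7 days, 1 µM MS023 for 2, 4, or 7 days, or both inhibitors at 1 µM each for 2 or 4 days. GSK591 inhibits PRMT5, and MS023 inhibits Type I PRMTs. Each of the 10 groups holds 3 poly(A)-RNA libraries, named a, b, and c by their order in the tables, and the 2-day groups share the 4-day DMSO control, so that inhibitor and day cannot be told apart at 2 days. All groups come from 1 cell line without any genetic change, and the labels do not say whether replicates were separate cultures, so p-values measure the spread between these libraries only. For retained introns and skipped exons, the inclusion level Ψ is the share that carries the intron or exon, by reads per effective length. It is taken over the forms counted for the event, and other transcripts are left out. For mutually exclusive exons and alternative splice sites, Ψ sets 1 form against the other. Which form is scored as inclusion is not given here, so the sign of ΔΨ does not name the form that rose. ΔΨ is the mean Ψ with inhibitor minus that with DMSO. An event was tested where every library had at least 10 reads, and it was called at an adjusted p under 0.05.

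Adaptor complexes select membrane cargo and join it to the clathrin coat. AP-1 works at the trans-Golgi network and endosomes, AP-2 works at the plasma membrane during endocytosis, and AP-3 sorts cargo from endosomes towards lysosomes and related organelles. Each complex has large subunits, a medium subunit (mu) that reads sorting signals, and a small subunit (sigma). AP1G2 encodes gamma-2, a relative of the gamma-1 large subunit of AP-1 encoded by AP1G1. PRMTs methylate arginines of many RNA-binding and splicing proteins, and PRMT5 with its partners methylates the Sm proteins of the spliceosome.

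AP1G2 lies on the minus strand at chr14:24028774-24037279 (GRCh37, equivalent to hg19), and its MANE transcript has 22 exons and 21 introns. The tables list 11 RI events in it, of which 8 are whole introns of that transcript: 5, 6, 11, 12, 13, 14, 16, and 17. All 8 lie between coding exons. Reading on from the upstream exon meets an in-frame stop codon within 7 of the 8 introns when they are retained. The exception is intron 5, at 171 nt a multiple of 3 without such a codon. Introns 12 and 13 are the shortest of the 8, at 77 and 81 nt, and intron 14 is the longest at 786 nt. The median length of the 11 AP1G2 introns is 189 nt, beside 260 nt over all 4928 RI introns listed.

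The splice sites of the introns are shown because retention is a failure to use them together. Each donor runs from 3 bases before to 6 bases after the exon end, each acceptor from 20 bases before to 3 bases after the intron end, and capitals mark the terminal GT and AG of the intron:
AP1G2 intron 5 donor, chr14:24035102-24035272: atgGTaagg
AP1G2 intron 5 acceptor: ttccccgacgctgaccccAGgca
AP1G2 intron 6 donor, chr14:24034911-24035024: aagGTgggc
AP1G2 intron 6 acceptor: aagttgtgccctccctccAGgtg
AP1G2 intron 11 donor, chr14:24033066-24033254: ccgGTgagc
AP1G2 intron 11 acceptor: aaacctctttctcctgccAGgag
AP1G2 intron 14 donor, chr14:24031803-24032588: cagGTacca
AP1G2 intron 14 acceptor: cagtttcttatcccatgtAGcaa
AP1G2 intron 16 donor, chr14:24031276-24031496: caaGTaaga
AP1G2 intron 16 acceptor: tacatactacactggcccAGccg
AP1G2 intron 17 donor, chr14:24030845-24031170: gagGTgtgt
AP1G2 intron 17 acceptor: cttgcattccatcctctcAGggc

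Introns 12 and 13 are short enough to show whole, with 6 exon bases on each side and the terminal GT and AG in capitals:
AP1G2 intron 12, chr14:24032848-24032924: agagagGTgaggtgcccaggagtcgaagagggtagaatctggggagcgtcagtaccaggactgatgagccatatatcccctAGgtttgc
AP1G2 intron 13, chr14:24032712-24032792: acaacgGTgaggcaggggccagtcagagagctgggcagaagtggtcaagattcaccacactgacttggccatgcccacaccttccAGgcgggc

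All 8 introns have GT and AG ends, and their donors match the consensus (CAG in the exon, GTAAGT in the intron) at 5 to 7 of 9 bases, where the median over all RI introns is 6. Intron 16, which had the largest ΔΨ with GSK591, has the best match of the 8 (7 bases), a score that 94.3% of all RI introns equal or stay under. The polypyrimidine share of the 18 bases before the acceptor AG is 61.1% in introns 12 and 16 and 83.3% in intron 17, with a median over all RI introns of 72.2%. These are descriptions of the sequences only.

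Before values, the libraries were compared as a whole. They hold between 72359972 and 107061919 reads on events of all types and between 3118222 and 5224249 reads on RI events. Of the epithelial markers, KRT7, KRT8, and KRT18 had 425200, 401200, and 17740 reads on events per library on average, CDH1 had 624.3, EPCAM had 37.53, and KRT19 had no event. Of markers of other cell types, COL1A1 had 29 reads, COL3A1 had 3.83, CD3E had 0, and PTPRC and PECAM1 had no event. Such reads depend on how many events of a gene are listed and do not measure expression. GSK591 at 2 days library a stood furthest from its own group, with a chi-square per degree of freedom of 4.72 and 5.44 against the other libraries of that group, where replicate pairs lay between 1.99 and 5.44.

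In AP1G2, 7 of the 8 introns were more retained with GSK591 at every time point, and those 7 had a lower mean Ψ with MS023 than with DMSO, although only some of them lay wholly below DMSO. Intron 16 had the largest ΔΨ with GSK591. Its Ψ was 0.409, 0.434, and 0.398 in the 3 DMSO libraries at 4 days. With GSK591 it was 0.715, 0.672, and 0.767 at 2 days and 0.792, 0.799, and 0.759 at 4 days. With MS023 it was 0.287, 0.331, and 0.348 at 2 days and 0.271, 0.284, and 0.242 at 4 days. Every GSK591 library thus lay above, and every MS023 library below, all DMSO libraries. At 7 days the DMSO libraries stood at 0.284, 0.290, and 0.320. The GSK591 libraries stood at 0.587, 0.698, and 0.654, and the MS023 libraries at 0.253, 0.174, and 0.208. The 3 groups again did not overlap, and the 7-day DMSO libraries were lower than those at 4 days. Reads on this event numbered 285 to 702 per library.

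**Figure D1:**
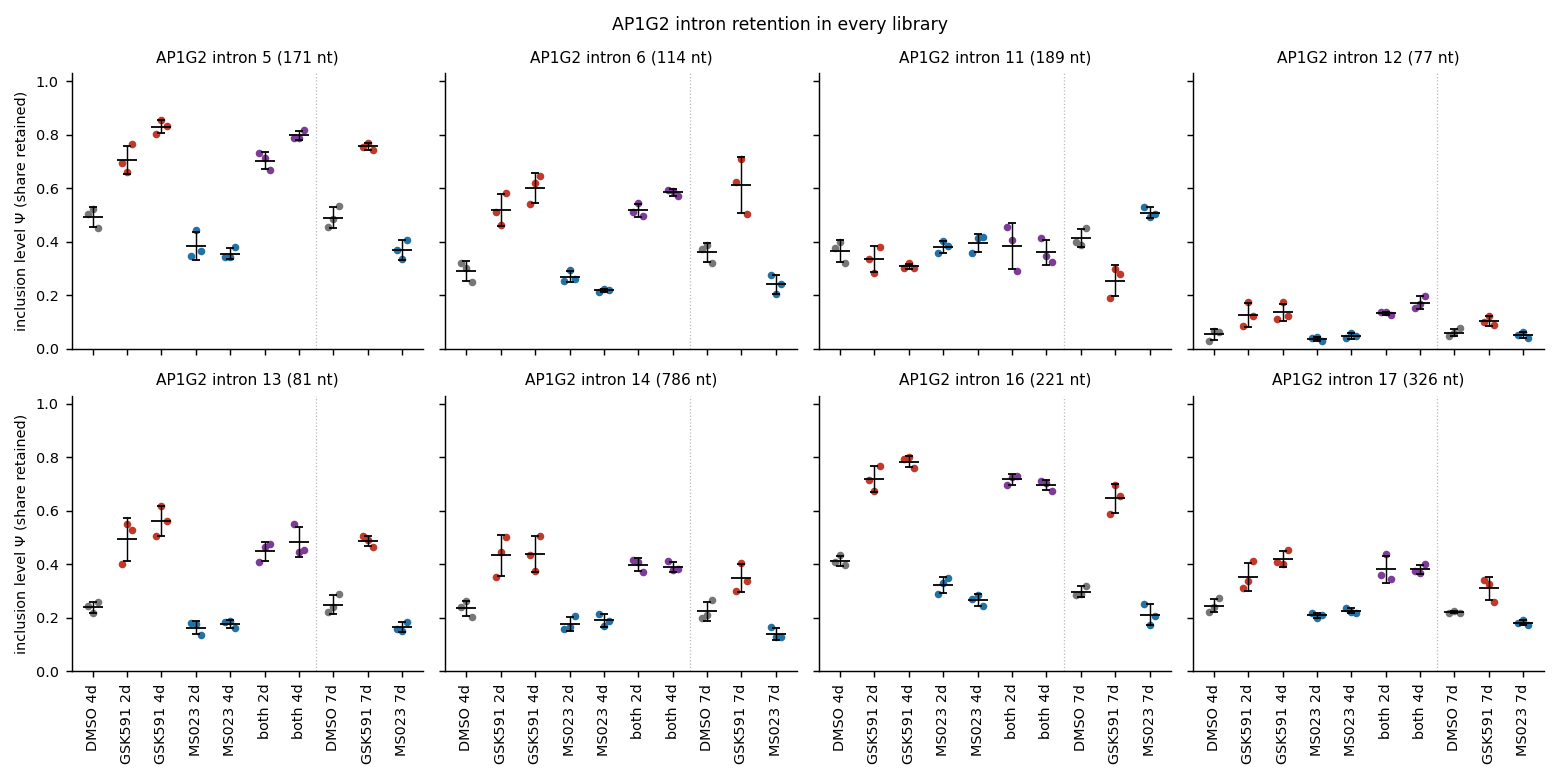
Inclusion level Ψ of 8 AP1G2 introns (vertical axis, 0 to 1) in each of the 30 libraries, by group along the horizontal axis. Points are libraries, bars are mean ± SD (n = 3), "both" is co-treatment, and the dotted line sets the 7-day groups apart. Introns 5, 6, 12, 13, 14, 16, and 17 sit higher with GSK591 and co-treatment than in DMSO, and intron 11 does not.

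AP1G2 intron 5 had the highest Ψ of the 8 with GSK591 at 4 and 7 days. Only the junctions of exon 6 to its neighbours count as the spliced forms of introns 5 and 6. Transcripts that skip exon 6 are therefore left out of the Ψ of both introns, which is not a share of all transcripts. In DMSO at 4 days its Ψ was 0.505, 0.522, and 0.450. In GSK591 at 4 days it was 0.804, 0.854, and 0.832, and in MS023 at 4 days it was 0.342, 0.343, and 0.378. These groups did not overlap. At 2 days GSK591 gave 0.694, 0.660, and 0.763, and MS023 gave 0.345, 0.444, and 0.364. The adjacent intron 6 had a Ψ of 0.290 ± 0.037 (SD, n = 3) in DMSO at 4 days, 0.601 ± 0.055 in GSK591, and 0.218 ± 0.0064 in MS023 at that time. At 2 days intron 6 overlapped between MS023, at 0.269 ± 0.022, and DMSO.

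In AP1G2, the 81-nt intron 13 had a Ψ of 0.244, 0.217, and 0.257 in DMSO at 4 days. It reached 0.400, 0.550, and 0.528 with GSK591 at 2 days, while MS023 gave 0.180, 0.175, and 0.135. No library of one group fell among those of another. The 77-nt intron 12 was the least retained, at 0.0528 ± 0.022 in DMSO at 4 days, and at 2 days 0.127 ± 0.045 in GSK591 and 0.0360 ± 0.0078 in MS023 libraries. The MS023 libraries of intron 12 overlapped those of DMSO at each time point.

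AP1G2 intron 14, the longest and the one with the most reads (18838 over the 30 libraries), had a Ψ of 0.235 ± 0.029 in DMSO, 0.433 ± 0.076 in GSK591 at 2 days, and 0.176 ± 0.026 in MS023 at 2 days. MS023 at 2 and 4 days overlapped DMSO in this intron, and at 7 days it did not, with 0.165, 0.128, and 0.126 against 0.200, 0.209, and 0.265. Of the 7 introns, intron 17 had the smallest ΔΨ with GSK591 at 2 days after intron 12, from 0.246 ± 0.026 to 0.353 ± 0.052 at 2 days. It lay at 0.209 ± 0.0093 with MS023 at 2 days.

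AP1G2 intron 11 did not share the pattern. Its Ψ was 0.365 ± 0.040 in DMSO at 4 days, and at 2 days 0.334 ± 0.049 in GSK591 and 0.381 ± 0.023 in MS023 libraries, and these groups overlapped. At 7 days the order was turned around from that of the other introns. GSK591 stood at 0.188, 0.298, and 0.278, DMSO at 0.400, 0.387, and 0.451, and MS023 at 0.529, 0.491, and 0.505, with no overlap among the 3 groups. An intron with the same donor and an acceptor 3 nt downstream (chr14:24033063-24033254) was listed beside it, with Ψ between 0.976 and 1.00 in all libraries where it was given, since its spliced form had at most 2 reads.

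**Figure D2:**
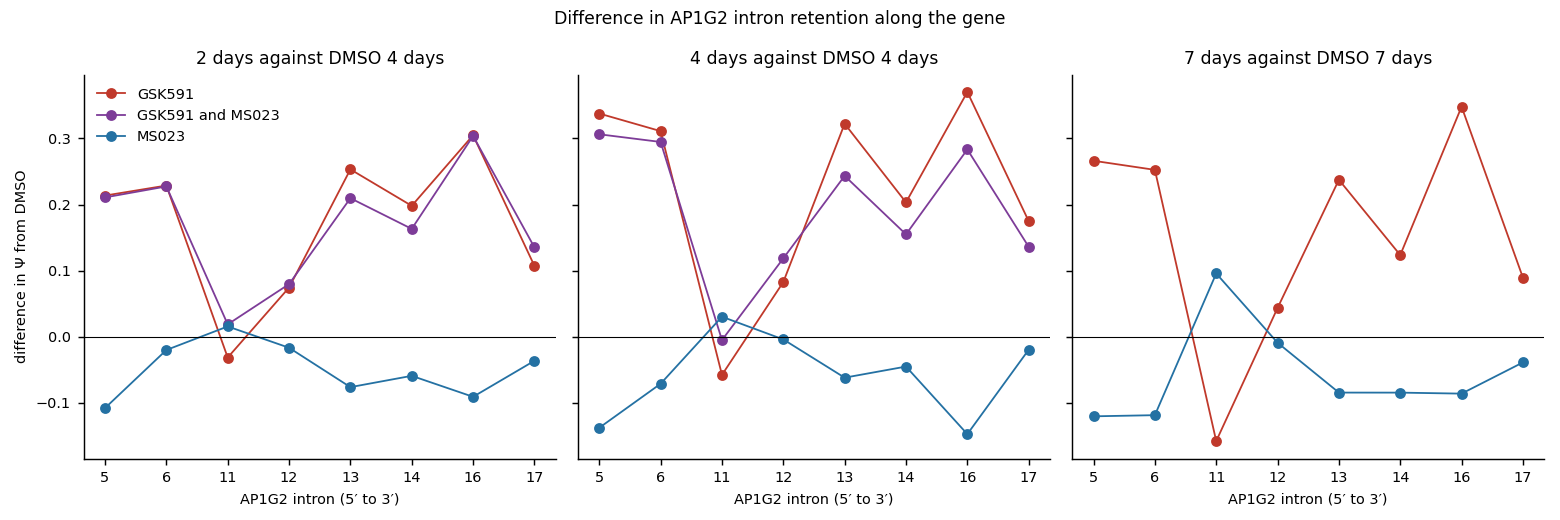
Difference in mean Ψ from the matching DMSO group (vertical axis) for the 8 AP1G2 introns in transcript order (horizontal axis), at 2, 4, and 7 days. Each point is a difference between means of 3 libraries, and lines only guide the eye. GSK591 and co-treatment lie above 0 for introns 5, 6, 12, 13, 14, 16, and 17, MS023 lies below 0 for these, and intron 11 departs from the others.

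The other listed AP1G2 events reuse these splice sites. One joins the donor of intron 5 to the acceptor of intron 6 (chr14:24034911-24035272), so that its spliced form skips exon 6 and its unspliced form holds introns 5 and 6 with exon 6 between them. Its Ψ was 0.823 ± 0.028 in DMSO at 4 days, and at 2 days 0.603 ± 0.082 in GSK591 and 0.831 ± 0.036 in MS023 libraries. Its spliced form is the same junction that counts as skipping of exon 6. The event that ends 29 nt downstream of the acceptor of intron 12 (chr14:24032819-24032924) had Ψ between 0.733 and 0.955 and overlapped between every inhibitor group and its DMSO group.

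Counted over the tests, 8 of the 11 AP1G2 introns were called with GSK591 at 2 days, 8 of 11 at 4 days, and 9 of 10 at 7 days, where 28.3%, 39.5%, and 28.9% of all tested RI events were called. With MS023 the counts were 4 of 11, 2 of 11, and 6 of 11, beside 5.45%, 7.33%, and 11.4% of all RI events. With co-treatment they were 8 of 11 at 2 days and 8 of 11 at 4 days, beside 35.1% and 40.1%. The choice of AP1G2 used these contrasts, so the counts describe the gene and nothing is read from them. Among the 8 whole introns, 4 lay wholly below DMSO with MS023 at 2 days, 4 at 4 days, and 6 at 7 days. Set directly against MS023, GSK591 had 8 of 11, 9 of 11, and 9 of 10 AP1G2 introns called at 2, 4, and 7 days, with 36.4%, 46.1%, and 40.3% of all RI events. In each of these comparisons 7 of the 8 whole introns did not overlap between the inhibitors and were higher with GSK591. How many of all RI events lay without overlap was not counted, so nothing is read from the counts without overlap either. The ΔΨ of intron 16 between the inhibitors was 0.396, 0.518, and 0.434 at 2, 4, and 7 days.

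Adding MS023 to GSK591 left AP1G2 retention near that of GSK591 alone. With both inhibitors, intron 16 had a Ψ of 0.695, 0.728, and 0.728 at 2 days and 0.710, 0.705, and 0.674 at 4 days. At 2 days all 8 introns overlapped between co-treatment and GSK591, with differences in mean Ψ from −0.0436 to 0.0502. At 4 days intron 16 was lower with both inhibitors by 0.0870 and intron 11 was higher by 0.0527, without overlap, and the other 6 introns overlapped. Over all RI events 4.4% were called in this comparison at 2 days and 9.12% at 4 days. None of the AP1G2 introns was called by the quasi-binomial test at either time, with 1 and 3 at an unadjusted p under 0.05 and none by limma, which does not show that the groups were alike. Of all RI events limma called only 2 of 3798 and 6 of 3924 in this comparison.

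The AP1G2 exons with the largest ΔΨ, exons 6 and 3, were skipped more with GSK591. Exon 6, of 77 nt (chr14:24035025-24035101), is coding, and its loss shifts the reading frame. Its Ψ was 0.851, 0.884, and 0.902 in DMSO at 4 days and 0.408, 0.586, and 0.453 with GSK591 at 2 days. With MS023 at 2 days its mean was 0.914 ± 0.013. GSK591 lay far below DMSO in every library, and MS023 overlapped it. At 7 days MS023 libraries stood at 0.965, 0.947, and 0.957, above the DMSO libraries at 0.880, 0.769, and 0.837, and GSK591 libraries stood at 0.444, 0.438, and 0.541.

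AP1G2 exon 3, of 125 nt (chr14:24035771-24035895), is also coding with a length that is no multiple of 3. Its Ψ was 0.758, 0.790, and 0.799 in DMSO at 4 days, 0.508, 0.447, and 0.472 with GSK591 at 2 days, and 0.360, 0.408, and 0.385 with GSK591 at 4 days. MS023 gave 0.754, 0.774, and 0.767 at 2 days, which overlapped DMSO. At 7 days exon 3 was at 0.748, 0.776, and 0.709 with MS023 and at 0.781, 0.838, and 0.790 in DMSO. These libraries did not overlap, by a narrow margin (0.776 against 0.781), and the lower level with MS023 was not called. With both inhibitors exon 6 stood at 0.379, 0.424, and 0.431 and exon 3 at 0.577, 0.551, and 0.441 at 2 days. Over all tested exon events of AP1G2, GSK591 had 2 higher and 5 lower of 31 called at 2 days, 3 higher and 8 lower of 41 at 4 days, and 2 higher and 6 lower of 28 at 7 days, beside 4.55%, 7.69%, and 5.48% of all exon events. Many of these events share an exon or a junction, and nothing is read from the counts.

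Introns of other genes most like AP1G2 intron 14 were sought by the Pearson correlation of mean Ψ over the 10 groups, among 3527 RI events. The highest were introns of KRTCAP2 (r = 0.992), a subunit of the oligosaccharyltransferase, TSTA3 (r = 0.990), an enzyme of GDP-fucose synthesis, and ACADVL (r = 0.987), an acyl-CoA dehydrogenase of mitochondria. In the KRTCAP2 intron Ψ went from 0.715 in DMSO at 4 days to 0.910 in GSK591 and 0.675 in MS023 libraries at 2 days. The corresponding values of AP1G2 intron 14 were 0.235, 0.433, and 0.176. Within AP1G2, introns 5, 6, 12, 13, 16, and 17 had r between 0.921 and 0.985 to intron 14, and intron 11 had r = −0.685. The groups share controls and their number is 10, so these are descriptions of likeness.

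**Figure D3:**
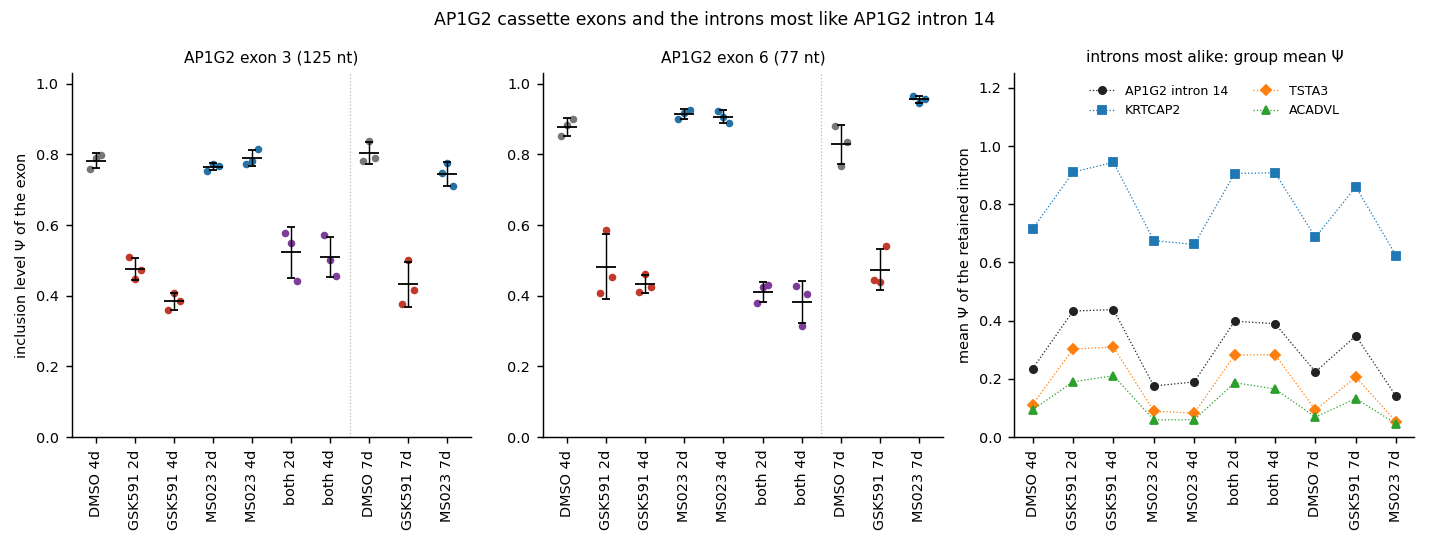
Inclusion level Ψ (vertical axes) of AP1G2 exons 3 and 6 in each library with mean ± SD (n = 3), and group mean Ψ of AP1G2 intron 14 beside the 3 introns of other genes most like it. Both exons are lower with GSK591 and co-treatment than in DMSO, and the 4 introns are higher in the same groups. Dotted lines only guide the eye.

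AP1G2-AS1, a long noncoding RNA on the opposite strand (chr14:24030306-24037282), covers most of AP1G2. The libraries were stranded, but the sources used here do not state whether reads were counted by strand. The part of AP1G2-AS1 in the values of Ψ was not tested. The tables also give no expression level, so a difference in splicing and a difference in the stability of either form cannot be told apart. In these bulk libraries, a difference in all cells and a larger one in some cells cannot be told apart either.

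The other 9 genes had few RI events. AP1G1 had 2, AP3D1 had 4, and the other 7 genes had none listed. Against DMSO, 1 of 5 tested introns was called with co-treatment at 2 days (35.1% of all RI events) and 1 of 6 with GSK591 at 7 days (28.9%), by the quasi-binomial test. None was called in the other 6 comparisons, beside 28.3%, 39.5%, and 40.1% of all RI events with GSK591 at 2 and 4 days and co-treatment at 4 days, and 5.45%, 7.33%, and 11.4% with MS023. In those 6 comparisons no intron had an unadjusted p under 0.05 by the quasi-binomial test, and none was called by limma. Of all RI events limma called 543 of 3866 and 1099 of 3933 with GSK591 at 2 and 4 days. With co-treatment at 4 days it called 1189 of 3949, and with MS023 it called 0 at each time. Between co-treatment and GSK591 none of 4 introns at 2 days and none of 6 at 4 days was called, with 1 at an unadjusted p under 0.05 each time and none by limma. Of all RI events limma called 2 of 3798 and 6 of 3924 there. With GSK591 their median ΔΨ was 0.0030, −0.0125, and −0.0106 at 2, 4, and 7 days, where that of all tested RI events was 0.0150, 0.0196, and 0.00762.

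AP3D1 encodes delta, a large subunit of AP-3. Its intron 23 (chr19:2112967-2113334, 368 nt) had a Ψ of 0.108, 0.055, and 0.092 in DMSO at 4 days and of 0.183, 0.153, and 0.181 with co-treatment at 2 days. All co-treated libraries lay above DMSO, and retention rose (ΔΨ = 0.0874, adjusted p = 0.00265, quasi-binomial model with Benjamini-Hochberg adjustment; 0.0487 by limma). With GSK591 alone its Ψ was 0.0958 ± 0.025 at 2 days and with both inhibitors 0.121 ± 0.019 at 4 days, neither of them called. AP3D1 intron 29 (chr19:2109207-2109871) had a ΔΨ of −0.0138 with GSK591 at 7 days (adjusted p = 0.0387), a call that was lost in 5 of 6 fits without a library, the highest adjusted p being 0.116 without DMSO at 7 days library b (0.0745 by limma with all libraries). The 2 introns listed for AP1G1, of gamma-1, had between 6 and 49 reads in each library, and neither was called in any comparison. They lie in intron 1 of its MANE transcript, and one (chr16:71842581-71842665) overlaps ATXN1L on the opposite strand.

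Exon events of the 9 genes were called in every comparison with DMSO. GSK591 had 7 of 152 tested events called at 2 days, 14 of 163 at 4 days, and 5 of 152 at 7 days, beside 4.55%, 7.69%, and 5.48% of all tested exon events. MS023 had 3 of 148, 6 of 163, and 5 of 137, beside 1.49%, 1.91%, and 2.61%. Co-treatment had 14 of 165 at 2 days and 19 of 172 at 4 days, beside 9.48% and 11%. The counts were not tested against the shares of all exon events, and many events of a gene share exons, so nothing is read from them. The limma test on log2 odds called 0, 1, and 1 with GSK591 at the 3 times, 0 at each time with MS023, and 3 at both times with co-treatment. Over all tested exon events limma called 90 of 108248, 1807 of 112359, and 365 of 98039 with GSK591. With MS023 it called 33 of 110113, 24 of 110139, and 26 of 100379, and with co-treatment 4052 of 114323 and 5590 of 113487. With MS023, and with GSK591 at 2 days, limma thus called few exon events of any gene. At an unadjusted p under 0.05 limma had 13 events for GSK591 at 2 days, beside 13955 of all exon events. For MS023 it had 13, 14, and 15, beside 9052, 9755, and 10346.

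**Figure D4:**
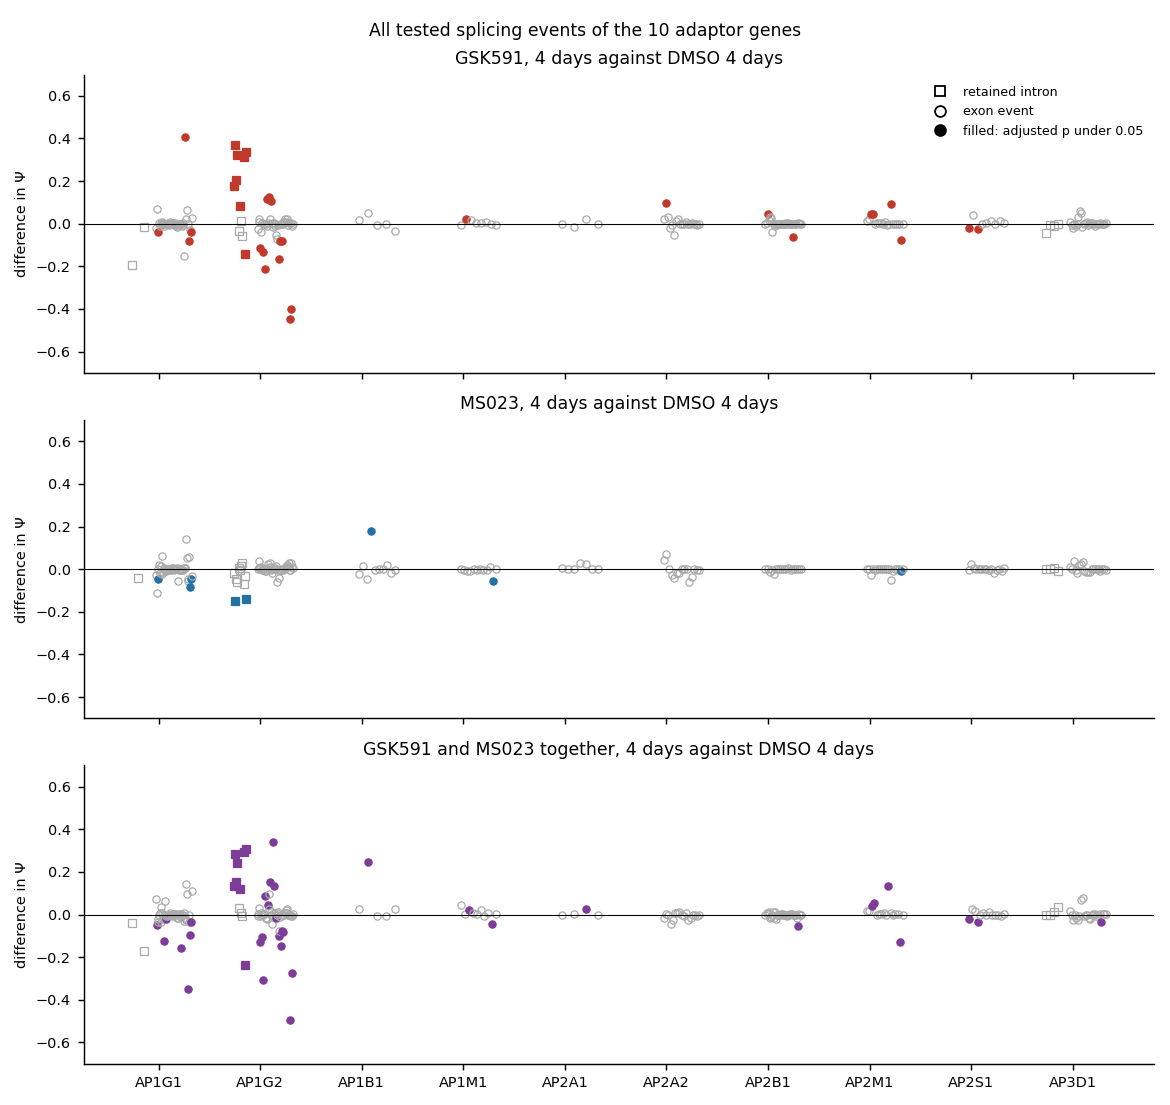
Difference in Ψ from DMSO at 4 days (vertical axis) of every tested event of the 10 genes (horizontal axis) with GSK591, MS023, and co-treatment for 4 days. Squares are retained introns, circles are exon events, filled symbols have an adjusted p under 0.05, and the AP1G2 symbols are a description because the gene was chosen on them. Filled symbols of the other genes number 14 with GSK591, 6 with MS023, and 19 with both.

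AP2M1, which encodes the mu subunit of AP-2 that binds tyrosine-based sorting signals, had 2 exons called in most comparisons with GSK591. Its exon 5 is a microexon of 6 nt. It is shown with 12 intron bases on each side and the exon in capitals, because the whole difference between the isoforms is these bases:
AP2M1 exon 5, chr3:183898433-183898438, plus strand: tgcggcctccagCATCAGgtaagctcttcc

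The AP2M1 microexon had a Ψ of 0.567, 0.590, and 0.568 in DMSO at 4 days and of 0.725, 0.704, and 0.715 with GSK591 at 2 days. Its inclusion rose (ΔΨ = 0.139, adjusted p = 1.5e-09), and at 4 days it rose by 0.0923 with GSK591 (adjusted p = 0.000109). Co-treatment gave 0.736, 0.728, and 0.683 at 2 days, which is a ΔΨ of 0.141 (adjusted p = 2.43e-11), and a ΔΨ of 0.134 at 4 days (adjusted p = 3.05e-11). With MS023 the ΔΨ was 0.0137 at 2 days (adjusted p = 0.711) and −0.0493 at 4 days (adjusted p = 0.190). DMSO libraries at 7 days already stood at 0.696, 0.700, and 0.635, near GSK591 at 0.712, 0.708, and 0.698 (adjusted p = 0.541). MS023 at 7 days gave 0.604, 0.614, and 0.573, a ΔΨ of −0.0797 (adjusted p = 0.0212) that was lost in 4 of 6 fits without a library, with the highest adjusted p of 0.263 without DMSO at 7 days library b. The limma test called none of these, with adjusted p from 0.404 to 0.765 in the called comparisons.

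AP2M1 exon 8, of 120 nt (chr3:183899484-183899603), is coding and keeps the frame. It was nearly always included in DMSO at 4 days, at 0.999, 0.997, and 0.998. It fell with GSK591 to 0.954, 0.958, and 0.945 at 2 days (ΔΨ = −0.0451, adjusted p = 5.18e-19) and to 0.944, 0.919, and 0.905 at 4 days (ΔΨ = −0.0751, adjusted p = 1.61e-35). With both inhibitors it fell to 0.886, 0.886, and 0.895 at 2 days (ΔΨ = −0.109, adjusted p = 1.89e-53) and to 0.869, 0.864, and 0.869 at 4 days (ΔΨ = −0.130, adjusted p = 8.64e-69). At each of these times all co-treated libraries lay below all GSK591 libraries. At 7 days GSK591 gave 0.930, 0.938, and 0.909 against 0.994, 0.993, and 0.996 in DMSO (ΔΨ = −0.0689, adjusted p = 7.76e-33). With MS023 ΔΨ was −0.00835 at 2 days and −0.00980 at 4 days, calls (adjusted p = 0.0367 and 0.0122) that were lost in 5 and 2 of 6 fits without a library. The highest adjusted p were 0.293 and 0.345, both without MS023 library c, and at 4 days the call was also lost without DMSO library a. By limma the exon was called with GSK591 at 4 and 7 days and with co-treatment at 2 and 4 days, with adjusted p from 0.00786 to 0.0392, and not with GSK591 at 2 days (adjusted p = 0.0766).

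AP1B1 encodes beta-1, a large subunit of AP-1 that binds clathrin. Its exon 22 is a microexon of 9 nt, shown in capitals in the same way:
AP1B1 exon 22, chr22:29725701-29725709, minus strand: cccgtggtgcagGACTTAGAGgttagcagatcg

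The AP1B1 microexon had a Ψ of 0.317, 0.308, and 0.302 in DMSO at 4 days. It rose with MS023 at 4 days to 0.441, 0.534, and 0.482 (ΔΨ = 0.177, adjusted p = 0.000111) and with co-treatment at 4 days to 0.544, 0.515, and 0.601 (ΔΨ = 0.245, adjusted p = 3.14e-09). At 7 days it rose with MS023 from 0.348, 0.345, and 0.326 to 0.521, 0.507, and 0.537 (ΔΨ = 0.182, adjusted p = 0.00393). At 2 days the ΔΨ was 0.120 with MS023 (adjusted p = 0.0377, lost without any 1 of the 6 libraries, with the highest adjusted p of 0.206 without MS023 library b) and 0.139 with co-treatment (adjusted p = 0.00422, but 0.0846 without co-treated library b). GSK591 gave a ΔΨ of −0.0482 at 2 days (adjusted p = 0.595), 0.0484 at 4 days (adjusted p = 0.508), and 0.105 at 7 days (adjusted p = 0.178). The limma test called none of these, with adjusted p from 0.180 to 0.753 in the called comparisons.

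AP1M1 encodes a mu subunit of AP-1. Its exon 9 (chr19:16339581-16339739) keeps the frame and had a Ψ of 0.998, 0.991, and 0.942 in DMSO at 4 days. With co-treatment at 2 days it fell to 0.854, 0.859, and 0.917 (ΔΨ = −0.100, adjusted p = 1.07e-08). With MS023 at 7 days it fell to 0.930, 0.917, and 0.920 from 0.993, 0.996, and 0.965 (ΔΨ = −0.0622, adjusted p = 0.000485). The ΔΨ was −0.0554 with MS023 at 2 days (adjusted p = 0.00342), −0.0553 at 4 days (adjusted p = 0.00213), and −0.0423 with co-treatment at 4 days (adjusted p = 0.00490). These 3 calls were lost without DMSO at 4 days library a, with adjusted p of 0.196, 0.149, and 0.173, and also without its library b, and that at 4 days with MS023 also without MS023 library c. The limma test called none of the 5, with adjusted p from 0.0835 to 0.492. With GSK591 the ΔΨ was 0.00265, −0.00225, and 0.00345 at 2, 4, and 7 days, with adjusted p from 0.798 to 0.902. An exon of 155 nt outside the MANE transcript (chr19:16313758-16313912) had a Ψ of 0.008, 0.012, and 0.017 in DMSO and 0.041, 0.049, and 0.047 with GSK591 at 2 days (ΔΨ = 0.0329, adjusted p = 0.00292, but 0.0686 without DMSO library a; 0.234 by limma).

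AP1G1 encodes gamma-1, the gene most related to AP1G2 here. None of its introns was called where it was tested. Of 90 exon events tested in any comparison with DMSO, 9 were called in some comparison. By comparison, 4 of 40 were called with GSK591 at 4 days and 3 of 46 with MS023 at 4 days. Co-treatment had 3 of 51 at 2 days and 7 of 49 at 4 days, and the other comparisons had none. The shares over all exon events were 7.69%, 1.91%, 9.48%, and 11% in these comparisons, and the share called in any comparison was not counted. The one with the largest ΔΨ was a 38-nt exon outside the MANE transcript and without coding bases, shown in capitals with 12 intron bases on each side:
AP1G1 38-nt exon, chr16:71841704-71841741, minus strand: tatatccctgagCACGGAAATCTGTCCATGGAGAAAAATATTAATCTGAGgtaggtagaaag

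The Ψ of the AP1G1 exon was 0.131, 0.094, and 0.253 in DMSO at 4 days and rose to 0.519, 0.713, and 0.466 with GSK591 at 4 days (ΔΨ = 0.407, adjusted p = 2.95e-05; 0.0839 by limma). At 2 days GSK591 gave 0.544, 0.421, and 0.271, where library a had only 5 reads and the event was not tested. With MS023 it was 0.109, 0.125, and 0.102 at 4 days (ΔΨ = −0.0473, adjusted p = 0.792). Co-treatment gave a ΔΨ of 0.188 at 2 days (adjusted p = 0.0689) and 0.144 at 4 days (adjusted p = 0.102). At 7 days GSK591 gave 0.690, 0.415, and 0.418 against 0.428, 0.178, and 0.389 in DMSO (ΔΨ = 0.176, adjusted p = 0.516). Libraries of the 4-day comparison had 37 to 78 reads on this exon, so small differences could not be detected. An exon of 350 nt that shares its downstream end (chr16:71841704-71842053) had a ΔΨ of −0.351 with co-treatment at 4 days (adjusted p = 0.0171), lost without co-treated library b (adjusted p = 0.224), without DMSO library c, and by limma (adjusted p = 0.0912).

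AP2B1 encodes beta-2, the clathrin-binding large subunit of AP-2. Its exon 15 of 42 nt is shown in capitals:
AP2B1 exon 15, chr17:33997876-33997917, plus strand: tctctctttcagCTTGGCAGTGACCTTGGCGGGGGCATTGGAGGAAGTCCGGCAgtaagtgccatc

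The Ψ of the AP2B1 exon was 0.275, 0.274, and 0.260 in DMSO at 4 days and 0.213, 0.184, and 0.224 with GSK591 at 4 days, without overlap. The ΔΨ was −0.0626 (adjusted p = 0.00554), but without GSK591 library b the adjusted p was 0.120. At 2 days the ΔΨ was −0.0531 with GSK591 (adjusted p = 0.0401), lost in 5 of 6 fits without a library, with up to 0.241 without GSK591 library b. Co-treatment gave −0.0518 and −0.0537 at 2 and 4 days (adjusted p = 0.0327 and 0.0216), lost in 5 and 3 such fits, with up to 0.180 without co-treated library a and 0.266 without co-treated library b. AP2B1 exons 2 and 3, scored as mutually exclusive, had a ΔΨ of 0.0478 with GSK591 at 4 days (adjusted p = 0.0192), lost in 3 of 6 fits, with up to 0.243 without DMSO library b. The limma test called none of these AP2B1 events, with adjusted p from 0.259 to 0.770.

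The remaining AP-2 and AP-3 events were small. AP2S1, of the sigma subunit, had a 156-nt form of exon 3 (chr19:47342722-47342877) that rose with GSK591 at 7 days from 0.952, 0.962, and 0.961 to 0.984, 0.989, and 0.988 (ΔΨ = 0.0288, adjusted p = 0.000176; 0.206 by limma). The pair of this exon and exon 4 was scored as mutually exclusive. With co-treatment at 4 days its Ψ fell from 0.0732, 0.0608, and 0.0648 to 0.0294, 0.0289, and 0.0340 (ΔΨ = −0.0355, adjusted p = 9.32e-06, and 0.0186 by limma). The same pair had a ΔΨ of −0.0271 with GSK591 at 4 days (adjusted p = 0.00697, up to 0.0632 without GSK591 library c) and −0.0267 with co-treatment at 2 days (adjusted p = 0.0118, up to 0.0975 without co-treated library c), each lost in 3 of 6 fits. AP3D1 exon 5 of 108 nt (chr19:2132470-2132577) was at 1.00, 0.998, and 1.00 in DMSO at 4 days and fell to 0.970, 0.953, and 0.966 with co-treatment at 2 days (ΔΨ = −0.0364, adjusted p = 3.02e-05) and by 0.0336 at 4 days (adjusted p = 2.48e-05), also called by limma at 0.0121 and 0.0112. AP3D1 exons 4 and 5, scored as mutually exclusive, had a ΔΨ of 0.0889 with co-treatment at 2 days (adjusted p = 0.0228), lost in 4 of 6 fits, with up to 0.133 without co-treated library b. AP2A2, of an alpha large subunit, had a pair of exons 2 and 4 with a ΔΨ of 0.0981 with GSK591 at 4 days (adjusted p = 0.00234, but 0.0727 without DMSO library b). AP2A1, of the other alpha subunit, had a ΔΨ of 0.0257 at its exon 13 with co-treatment at 4 days (adjusted p = 0.0287), lost in 3 of 6 fits, with up to 0.383 without DMSO library c. By limma the adjusted p of the pair in AP3D1, the pair in AP2A2, and the exon in AP2A1 were 0.170, 0.176, and 0.172, and those of the AP2S1 pair with GSK591 at 4 days and co-treatment at 2 days were 0.115 and 0.103.

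**Figure D5:**
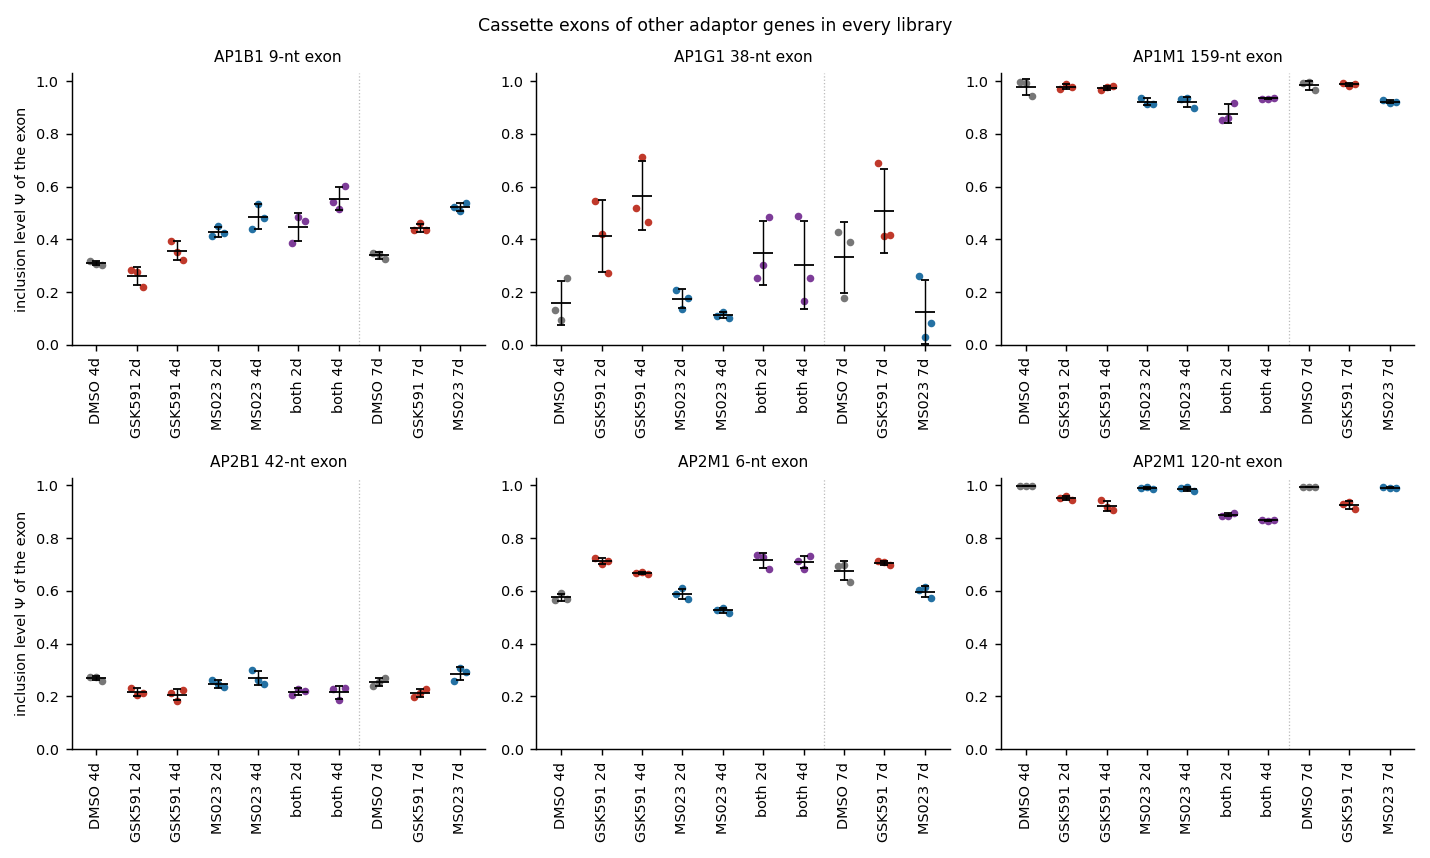
Inclusion level Ψ (vertical axes) of 6 exons of other adaptor genes in each of the 30 libraries, by group along the horizontal axes, with mean ± SD (n = 3). The AP2M1 6-nt exon is higher with GSK591 and co-treatment at 2 and 4 days, the AP2M1 120-nt exon is lower in those groups, and the AP1B1 9-nt exon is higher with MS023 and co-treatment at 4 days.

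Set directly against each other, GSK591 and MS023 differed in 12 of 119 exon events of the 9 genes at 2 days (7.96% of all), 18 of 125 at 4 days (11.8%), and 17 of 104 at 7 days (9.61%), and in 0 of 5, 0 of 5, and 0 of 4 of their introns. At an unadjusted p under 0.05 there were 1, 0, and 0 introns. Limma called none of them, beside 988 of 3802, 1427 of 3878, and 1114 of 3769 of all RI events. The exon calls depend on how the dispersion is moderated, a setting chosen after the numbers of calls were seen. With 1 prior for all events they numbered 0, 2, and 0, and by limma 2, 6, and 4. Over all exon events 1 prior gave 876 of 87914, 2561 of 89201, and 1041 of 81098 calls, and limma 894, 4685, and 3811. The AP2M1 microexon was higher with GSK591 by 0.125, 0.142, and 0.109 at 2, 4, and 7 days (adjusted p = 1.81e-09, 1.48e-11, and 7.84e-07), of which the 4-day call held with 1 prior (adjusted p = 0.0216; 0.0514 and 0.0569 at 2 and 7 days) and none held by limma (0.372, 0.182, and 0.207). AP2M1 exon 8 was lower with GSK591 by a ΔΨ of −0.0368, −0.0653, and −0.0663 (adjusted p = 6.47e-10, 4.09e-20, and 3.57e-32; 0.0688, 0.0661, and 0.0509 with 1 prior; 0.0808, 0.0438, and 0.0171 by limma).

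The AP1B1 microexon was lower with GSK591 than with MS023 at 2 days (ΔΨ = −0.168, adjusted p = 0.000223; 0.0871 with 1 prior, 0.249 by limma). At 4 days the ΔΨ was −0.129 (adjusted p = 0.00519, but 0.0987 without MS023 library b), and at 7 days it was −0.0772 (adjusted p = 0.312). AP1M1 exon 9 was higher with GSK591 by 0.0581, 0.0530, and 0.0656 (adjusted p = 0.000616, 0.00123, and 1.71e-05; 0.135, 0.0946, and 0.0962 with 1 prior; 0.125, 0.0736, and 0.0254 by limma). The AP1G1 38-nt exon was higher with GSK591 at 4 days by 0.454 (adjusted p = 0.000296; 0.0770 with 1 prior, 0.0274 by limma).

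A list of 55 other genes of clathrin coats and vesicle adaptors, of which 53 had an event in the tables, was read beside the 10. With GSK591, 6 of 20 introns were called at 2 days, 10 of 21 at 4 days, and 7 of 19 at 7 days, of which 6, 9, and 5 were higher, beside 28.3%, 39.5%, and 28.9% of all RI events. With co-treatment, 8 of 20 at 2 days and 9 of 20 at 4 days were called, all higher, beside 35.1% and 40.1%. With MS023, 0 of 20 were called at 2 days (2 at an unadjusted p under 0.05), 0 of 20 at 4 days (3 at an unadjusted p under 0.05), and 1 of 19 at 7 days, beside 5.45%, 7.33%, and 11.4%. By limma the called introns numbered 5, 8, and 3 with GSK591, 5 and 4 with co-treatment, and 0 at each time with MS023. Of all RI events limma called 543 of 3866, 1099 of 3933, and 640 of 3836 with GSK591. With co-treatment it called 858 of 3897 and 1189 of 3949. Limma called 0 of all RI events with MS023 as well.

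Of the exon events of this list at 2 days, GSK591 had 17 of 674 called (4 higher and 13 lower), MS023 had 12 of 633 (5 higher and 7 lower), and co-treatment had 46 of 640 (12 higher and 34 lower), beside 4.55%, 1.49%, and 9.48% of all exon events. By limma these counts were 0, 0, and 15, beside 90 of 108248, 33 of 110113, and 4052 of 114323 over all exon events. The median ΔΨ of the introns with GSK591 was 0.0186, 0.00809, and 0.0193 at 2, 4, and 7 days, beside 0.0150, 0.0196, and 0.00762 over all tested RI events.

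CLTCL1, a second clathrin heavy chain, had an intron with a Ψ of 0.105, 0.0740, and 0.118 in DMSO at 4 days that rose to 0.370, 0.427, and 0.402 with GSK591 at 2 days (ΔΨ = 0.300, adjusted p = 0.00143; 0.0115 by limma), on 30 to 47 reads per library. GGA1, a monomeric adaptor of the trans-Golgi network, had an exon that fell from 0.734, 0.759, and 0.702 to 0.453, 0.476, and 0.391 with GSK591 at 2 days (ΔΨ = −0.292, adjusted p = 2.93e-05; 0.251 by limma). In AP5Z1, of the AP-5 complex, the Ψ of a pair of alternative 3′ splice sites rose with GSK591 at 2 days. It went from 0.431, 0.333, and 0.412 to 0.606, 0.720, and 0.705 (ΔΨ = 0.285, adjusted p = 4.14e-05, and 0.211 by limma).

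With MS023, an exon of PICALM, which binds clathrin and membrane lipids, fell from 0.396, 0.377, and 0.389 to 0.238, 0.150, and 0.186 at 2 days (ΔΨ = −0.196, adjusted p = 3.2e-15; 0.578 by limma). It fell to 0.115, 0.136, and 0.107 with both inhibitors at 2 days (ΔΨ = −0.268, adjusted p = 2.04e-31; 0.0664 by limma). An exon of GAK, a kinase of clathrin uncoating, fell from 0.942, 0.905, and 0.965 to 0.731, 0.678, and 0.738 with MS023 at 2 days (ΔΨ = −0.222, adjusted p = 3.11e-08; 0.260 by limma). EPS15L1, an endocytic scaffold, had an exon with a ΔΨ of −0.226 with MS023 at 2 days (adjusted p = 0.0335), lost in 4 of 6 fits without a library, with up to 0.473 without MS023 library a (0.620 by limma with all libraries).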

How the data were processed

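The authors trimmed reads, aligned them to hg19, and ran rMATS on each inhibitor group and its DMSO group, and the submitters' processing notes name Trim Galore 0.6.5 and STAR 2.4.2a. The deposited tables give counts of inclusion and skipping reads per event and library, which are whole numbers and not normalized, 3 to a cell, together with effective lengths and the authors' own Ψ, p-values, FDR, and differences in inclusion level. The last 3 were not used. Junction reads and reads inside the alternative segment both enter the deposited inclusion counts. The sources give more than 1 rMATS release. The authors describe the libraries as stranded, but whether strand was used in counting is not given in the sources used here. Of the 96 samples of the series, 30 are in the 10 groups and 66 were not analysed here. No column of per-sample values was left unused (0). DMSO counts were identical in tables that share a control (0 differed), and Ψ computed from the counts was within 0.0005 of the deposited Ψ.

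Each event with at least 10 reads in every library was tested in R 4.3.3 by a quasi-binomial logistic fit to its inclusion and skipping counts, with the dispersion moderated by squeezeVar of limma 3.58.1 and held at 1 or above, an F test, and Benjamini-Hochberg adjustment over all tested events of a type in a comparison. A robust prior with a trend over the reads of the rarer form, estimated from events with at least 10 such reads over all libraries, was chosen after the numbers of calls were seen, since a single prior gave unstable call rates in the direct comparisons of inhibitors. The code was tested on simulated data. Counts for exon events are pooled over SE, MXE, A3SS, and A5SS. As alternatives, limma was run on log2 odds with 0.5 added to each count, the read minimum was set to 20 or 1, p-values were adjusted over all types, a single prior was used, and each library was left out in turn. Replicate pairs differed by more than sampling noise, so none was counted as a duplicate.

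The members and lists were chosen with earlier results of these data known. All 10 members are named, and every AP1G2 intron. For each other member the text names the event with the largest difference in Ψ among its called events with at least 20 reads in every library of a comparison with DMSO, up to 2 for introns and 2 for exon events, and for the wider list the 3 such events per inhibitor at 2 days. AP1G2 exons 3 and 6 were picked by the same rule, which was not written for that gene. Coordinates and sequences are from the GRCh37 genome and annotation, counted from 1. Intervals are not given, and precision is limited by reads per event and 3 libraries per group. A marker of the list fixed for the cell type check is not reported here.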

Additional observations from a re-analysis of the deposited data

Results flagged for a closer look

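The AP1B1 9-nt microexon, of a large AP-1 subunit, had differences of opposite sign between GSK591 and DMSO at different times, none of them called. A ΔΨ of −0.0482 after 2 days stood against 0.0484 after 4 days and 0.105 after 7 days. Every GSK591 library lay below all DMSO libraries at 2 days (0.283, 0.278, and 0.221 against 0.317, 0.308, and 0.302) and above them at 4 days (0.396, 0.353, and 0.323). At 7 days they also lay above their own DMSO libraries. The adjusted p were 0.595, 0.508, and 0.178, and the difference between the times was not tested. The 2- and 4-day comparisons share the 4-day DMSO libraries, so at 2 days inhibitor and day cannot be told apart.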

How the results depend on the processing

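No paired analysis was possible because the columns of the tables carry no replicate numbers. Direction was checked for the named events of the 9 genes that were called. In the fits without 1 library, none of their differences changed sign. Limma, 1 prior, adjustment over all types, and the read minimum use the same ΔΨ as the main fit. Those alternatives are therefore no test of direction. Differences that were not called, and counts, were not checked for direction. Among 165 tests of named events of the 9 genes, all kept their call or lack of one with a minimum of 1 read, as did 160 of 160 with a minimum of 20 reads, and 163 with adjustment over all types. Of these tests, 43 were called against DMSO and 21 in GSK591 against MS023. By limma 8 of the 43 and 6 of the 21 stayed called, and 50 were no longer called. With 1 prior all 43 but only 1 of the 21 stayed called, so that 20 were lost, and 9 were gained. The robust trended prior behind the reported calls was itself chosen after the numbers of calls with 1 prior were seen, and 1 prior was then kept as an alternative added after seeing the data. Of the 43 called against DMSO, 20 remained called without any 1 library.

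With limma, called exon events of the 9 genes went from 7 to 0 (GSK591), 3 to 0 (MS023), and 14 to 3 (both) at 2 days, from 14 to 1, 6 to 0, and 19 to 3 at 4 days, and from 5 to 1 (GSK591) and 5 to 0 (MS023) at 7 days. In GSK591 against MS023 they went from 12 to 2, 18 to 6, and 17 to 4 at 2, 4, and 7 days. Called introns of all 10 genes went from 4 to 0 and 2 to 0 with MS023 at 2 and 4 days, and from 10 to 4 (GSK591) and 6 to 0 (MS023) at 7 days. Of these calls 4, 2, 9, and 6 were of AP1G2, which was chosen on these contrasts, so nothing is read from them. The 1 called intron of the 9 genes with GSK591 at 7 days was lost (0). Of all RI events limma called 640 of 3836 with GSK591 at 7 days. With MS023 limma called 0 of all RI events at each time. Adjustment over all types gave 0 introns with MS023 at 2 days and 0 for the 9 genes with GSK591 at 7 days. With 1 prior, exon calls were 9 and 12 with MS023 at 2 and 4 days, 14 with GSK591 and 8 with MS023 at 7 days, and 0, 2, and 0 in GSK591 against MS023, where 1 intron was called at 2 days. Over all exon events 1 prior called 3386 of 110113 and 3993 of 110139 with MS023 at 2 and 4 days. At 7 days it called 8025 of 98039 with GSK591 and 4505 of 100379 with MS023. In GSK591 against MS023 at 2 days it called 1120 of 3802 RI events. A minimum of 1 read gave 1 intron in GSK591 against MS023 at 4 days and 1 at 7 days. The cause of these changes was not tested.

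Without 1 library at a time, exon calls of the 9 genes ranged over 4 to 6 (GSK591), 0 to 2 (MS023), and 9 to 15 (both) at 2 days, 9 to 16, 3 to 6, and 16 to 19 at 4 days, and 4 to 7 and 2 to 6 at 7 days, and in GSK591 against MS023 over 8 to 12, 11 to 15, and 10 to 14. Introns called in all 10 genes ranged over 6 to 8 (GSK591) and 0 to 2 (MS023) at 2 days, 2 to 3 with MS023 at 4 days, and 6 to 8 and 2 to 6 at 7 days. In GSK591 against MS023 they ranged over 8 to 8, 8 to 9, and 8 to 9, and in co-treatment against GSK591 at 4 days over 0 to 2. Most of these introns are of AP1G2, which was chosen on such contrasts, so the ranges describe that gene and nothing is read from them. Introns of the 9 genes ranged over 0 to 1 with GSK591 at 7 days and in GSK591 against MS023 at 4 days. Exon calls were fewest without DMSO library a (GSK591 and MS023 at 2 days, MS023 at 7 days), DMSO library b (GSK591 and MS023 at 4 days), co-treated library b (2 days), and, in GSK591 against MS023, without MS023 library a (2 days), GSK591 library c (4 days), and MS023 library b (7 days). Introns were fewest without DMSO library a (MS023 at 2 days), GSK591 library a (GSK591 at 7 days), and MS023 library b (MS023 at 7 days).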
